A study of Saccharomyces cerevisiae with 26 samples.

Results

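The genes described here encode proteins of the cytosolic large ribosomal subunit of budding yeast, from RPL1A to RPL30 together with RPL32, RPL38 and RPL39. They were chosen by name and make up 56 of the 6692 open reading frames with a deposited count. They hold 23 pairs of A and B copies and 10 genes with 1 copy. Poly(A)-selected RNA was sequenced from 26 libraries in 8 groups. All strains were MATa derivatives of BY4741 in which HHT2 had been restored at its own locus, and the unmodified one is called WT. H3A110C carries cysteine in place of alanine at residue 110 of histone H3, introduced in HHT1 and in HHT2. In cup1F8* every copy of the copper metallothionein gene CUP1 holds a stop codon, and in gsh1Δ the gene for the first enzyme of glutathione synthesis is replaced by a KanMX6 cassette. H3A110Ccup1F8* and H3A110Cgsh1Δ carry both changes. WT and H3A110C were grown in SC, a synthetic medium with glucose that yeast ferments (3 libraries each). WT, H3A110C, gsh1Δ and H3A110Cgsh1Δ (3 libraries each) and cup1F8* and H3A110Ccup1F8* (4 each) were grown in SCEG, which holds ethanol and glycerol in place of glucose and requires respiration. The study reports that gsh1Δ and H3A110Cgsh1Δ needed added glutathione to grow in oxidative medium, and that SCEG itself holds none. Whether glutathione was added to the gsh1Δ cultures used for RNA is not given in the sources used here. Such a supplement could not be told apart from the loss of GSH1.

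A ribosome's large subunit joins amino acids into protein and holds the tunnel through which the new chain leaves. Making ribosomes is among the costliest tasks of a growing yeast cell, and the genes for ribosomal proteins are known to be transcribed together, at a rate that follows nutrients and growth through the TOR and protein kinase A pathways. The general regulatory factor Rap1 binds upstream of most of them and recruits Fhl1 and its co-activator Ifh1, whereas Crf1 is a co-repressor that replaces Ifh1 on Fhl1. Most of the genes are present as A and B copies that remain from an ancient duplication of the whole genome.

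The pairs encoded nearly the same proteins. Computed from the S288C reference of the R64 build, the A and B proteins were identical in 7 of 23 pairs (RPL1, RPL2, RPL12, RPL19, RPL20 and RPL23 among them) and least alike in RPL22, with 84.4% identity. Similar sequence limits how well reads can be assigned to a copy. For RPL1A and RPL1B only 19.01% of the 50-base windows of the exons occur once in the genome, for RPL4 27.3%, for RPL7 37.7%, for RPL11 39.1%, for RPL14 51.4% and for RPL2 71.5%, so the split of reads within those pairs is uncertain. For RPL16, RPL17 and RPL27 the share was 100%. Of the 56 genes 34 (60.7%) hold an intron within the coding sequence, against 5.44% of 6007 annotated genes. The share was 76% in the other large subunit genes and 64.9% in the small subunit genes.

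A Rap1 core was looked for on both strands in the 600 bases before each coding start, as ACCCNNACA or ATCCNNACA (N is any base, and no stretch can match both forms at once). This window and the second form were chosen after a first search had been seen. A core was present for 39 of the 56 genes (69.6%) and for 12.6% of 6004 genes of the genome. It was also present for 84% of the other large subunit genes and 59.6% of the small subunit genes. The median distance of the 50 cores found to the coding start was 322 bases. The letters GACGC, part of a site described for Fhl1, were present for 50% of the genes and 35.4% of the genome. They were present for 32% of the other large subunit genes and 50.9% of the small subunit genes. Stretches around the core are shown for RPL8 and RPL9, whose ratio of copies changed most between the media, and for RPL22A, RPL22B and RPL28. RPL22A and RPL28 had almost no reads in SCEG, and whether reads were assigned alike in both media was not tested. RPL12A, the largest fall among the genes that kept reads, has 2 cores and is not shown. They were read from R64 on the strand of the gene, 5′ to 3′, with the core in capitals and, where the core lies on the opposite strand, its reverse complement in capitals. They lie at chrVIII:36241-36279 (RPL8A, minus strand), chrXII:48890-48928 (RPL8B, minus), chrVII:228616-228654 (RPL9A, minus), chrXII:262952-262990 (RPL22A, plus), chrVI:65154-65192 (RPL22B, minus) and chrVII:310688-310726 (RPL28, plus).
RPL8A: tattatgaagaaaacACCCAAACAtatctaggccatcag
RPL8B: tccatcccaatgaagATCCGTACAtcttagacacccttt
RPL9A: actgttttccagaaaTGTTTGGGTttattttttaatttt
RPL22A: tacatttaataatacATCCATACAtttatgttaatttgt
RPL22B: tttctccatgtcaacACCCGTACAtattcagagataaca
RPL28: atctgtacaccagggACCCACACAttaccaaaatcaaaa
RPL8A and RPL8B carried different forms of the core, as did RPL22A and RPL22B, and no match was found in this window for RPL9B. These traits are not particular to the pairs shown. The copies of RPL19 and of RPL27 also carried different forms. Their log2 ratios of A to B changed by only 0.08 and −0.07 between the media in WT. RPL9B is among 17 of the 56 genes without a match. Whether the form of the core bears on the counts was not tested. The median log2 fold change from SC to SCEG in WT was −0.78 for 37 genes with a core and −0.78 for 16 without (RPL22A, RPL28 and RPL39 left out), as a description with no test.

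Library totals ran from 9428849 to 12305863 counts in SC, from 2917138 to 6013267 in SCEG without cup1F8* and from 7579367 to 10133258 in SCEG with it. In SC, library B of each strain stood apart from its group (chi-square divided by the number of genes at 100.2 and 105.9 in WT, 121.7 and 144.5 in H3A110C, and below 10 between the others). In SCEG, H3A110Cgsh1Δ replicate 2 stood apart by less (22.5 and 41.1, against 5.65 between the other libraries of its group). GSH1 was at 0 CPM in the 6 libraries labelled with its deletion and between 107 and 198 CPM in the others, whereas both CUP1 genes were listed at 0 in all SCEG libraries and could not check the cup1F8* label. Library names mark the SC libraries by letters and number the SCEG libraries in a single run. In that run the 12 without cup1F8* come before the 8 with it. No batch is named, and the 3 sets used here are read from these names alone. The medium and the change from WT to cup1F8* cannot be told apart from a batch that follows these sets. The comparisons of H3A110C with its own background lie within a set. In the SCEG set without cup1F8* the strains take turns by number. In the set with it, all cup1F8* libraries come before those of H3A110Ccup1F8*. A batch that follows this order cannot be told apart from adding H3A110C to cup1F8*. The study's methods describe RNA from independent experiments, and the sources used here do not say which library came from which, so p-values measure the spread between libraries.

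RPL22A, RPL28 and RPL39 had almost no reads in SCEG and are described apart, a choice made after seeing the data. RPL22A (YLR061W, chrXII:263194-263948) had 10302, 7005 and 10233 reads in WT in SC and 7980, 7493 and 10882 in H3A110C, but between 0 and 3 reads in each of the 20 SCEG libraries. RPL39 (YJL189W, chrX:75933-76474), whose short protein lines the exit tunnel, had 5537 to 7368 reads in the SC libraries and 0 reads in every SCEG library, where 3 counts would be at most 1.03 CPM. RPL28 (YGL103W, chrVII:310967-311927), the gene in which resistance to cycloheximide arises, had 14614 to 20246 reads in SC, 1 to 10 in the SCEG libraries without cup1F8* and 37 to 63 in those with it. The SC and SCEG libraries did not overlap for these genes, while each of the other 53 genes had at least 10.8 CPM in every library. In all, 9 identifiers had more than 100 CPM in every SC library and less than 10 CPM in every SCEG library, among them the large subunit genes RPL33A and RPL43A. Identifiers without an R64 annotation took 0.119% to 0.162% of counts in SC, 0.244% to 0.304% in SCEG without cup1F8* and 0.415% to 0.463% in SCEG with it. The 50-base windows of RPL22A, RPL28 and RPL39 were 100% unique, so unique sequence is no sign that reads were assigned alike in both media. Whether reads were assigned to genes in the same way in both media was not tested, and no fold change is given for these 3 genes between media.

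**Figure D1:**
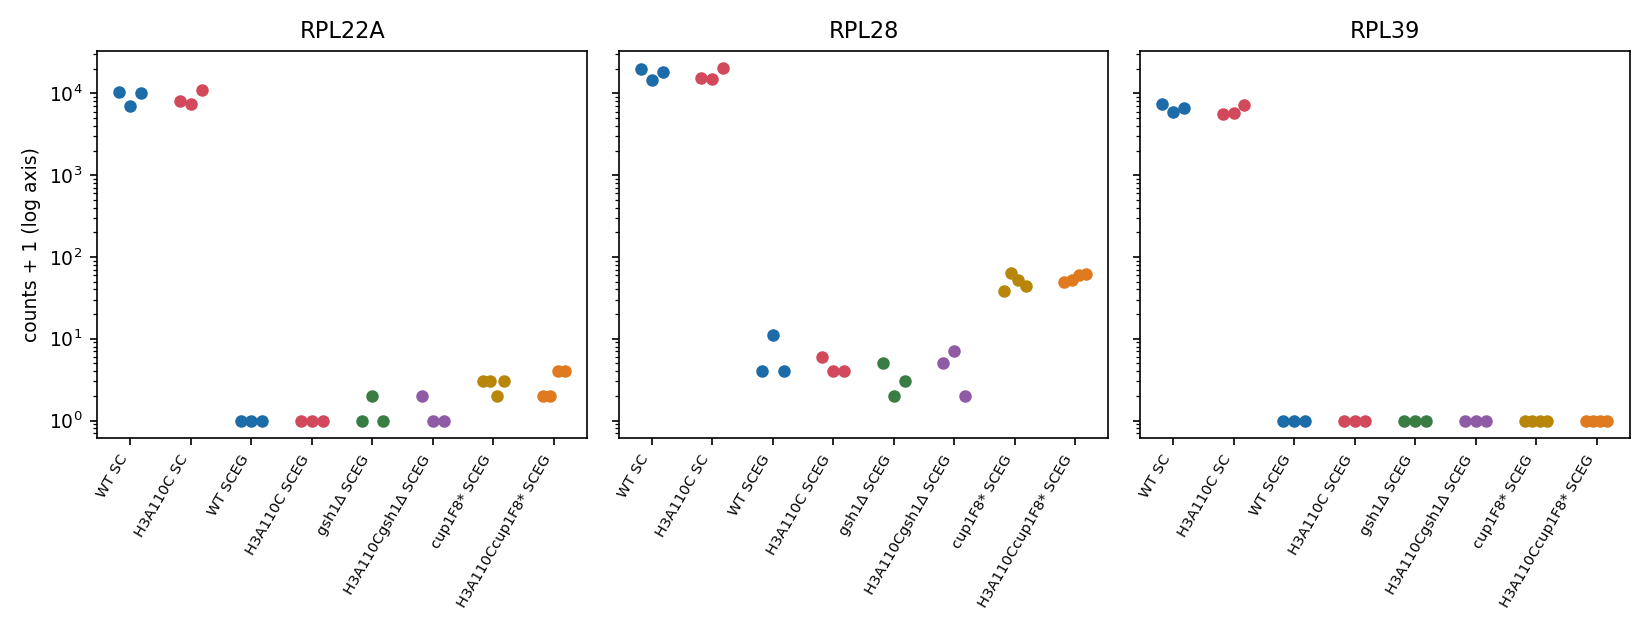
Reads counted for RPL22A, RPL28 and RPL39 in each library (1 point per library, counts plus 1 on a log axis) in the 8 groups. The 6 SC libraries lie between 5537 and 20246 reads, and the 20 SCEG libraries at 63 reads or fewer.

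The other 53 genes took 5.45% to 6.68% of all counts in the SC libraries, 3.94% to 3.995% in WT in SCEG and 3.72% to 4.17% in H3A110C in SCEG. In gsh1Δ their share was 2.99% to 3.56% and in H3A110Cgsh1Δ 2.95%, 2.96% and 3.88%. It was lowest in cup1F8*, at 1.71% to 1.83%, and 2.05% to 2.09% in H3A110Ccup1F8*. The second measure of level was their mean log2 CPM, in which CPM are counts scaled to library size with TMM factors over all 26 libraries. That mean was 10.04 ± 0.10 (SD, n = 3) in WT and 9.99 ± 0.20 (n = 3) in H3A110C in SC. In SCEG it was 9.10 ± 0.04 (n = 3) in WT, 9.07 ± 0.11 (n = 3) in H3A110C, 8.83 ± 0.11 (n = 3) in gsh1Δ and 8.78 ± 0.27 (n = 3) in H3A110Cgsh1Δ. In cup1F8* it was 7.73 ± 0.03 (n = 4) and in H3A110Ccup1F8* 7.96 ± 0.02 (n = 4). WT and H3A110C overlapped in either medium, as did gsh1Δ and H3A110Cgsh1Δ, and the spread in the latter came from replicate 2 (9.09, against 8.63 in the other 2 libraries). The 2 cup1F8* strains did not overlap with each other or with any other group. These are shares of the RNA counted, and fewer transcripts of these genes per cell cannot be told apart from more RNA of other genes.

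**Figure D2:**
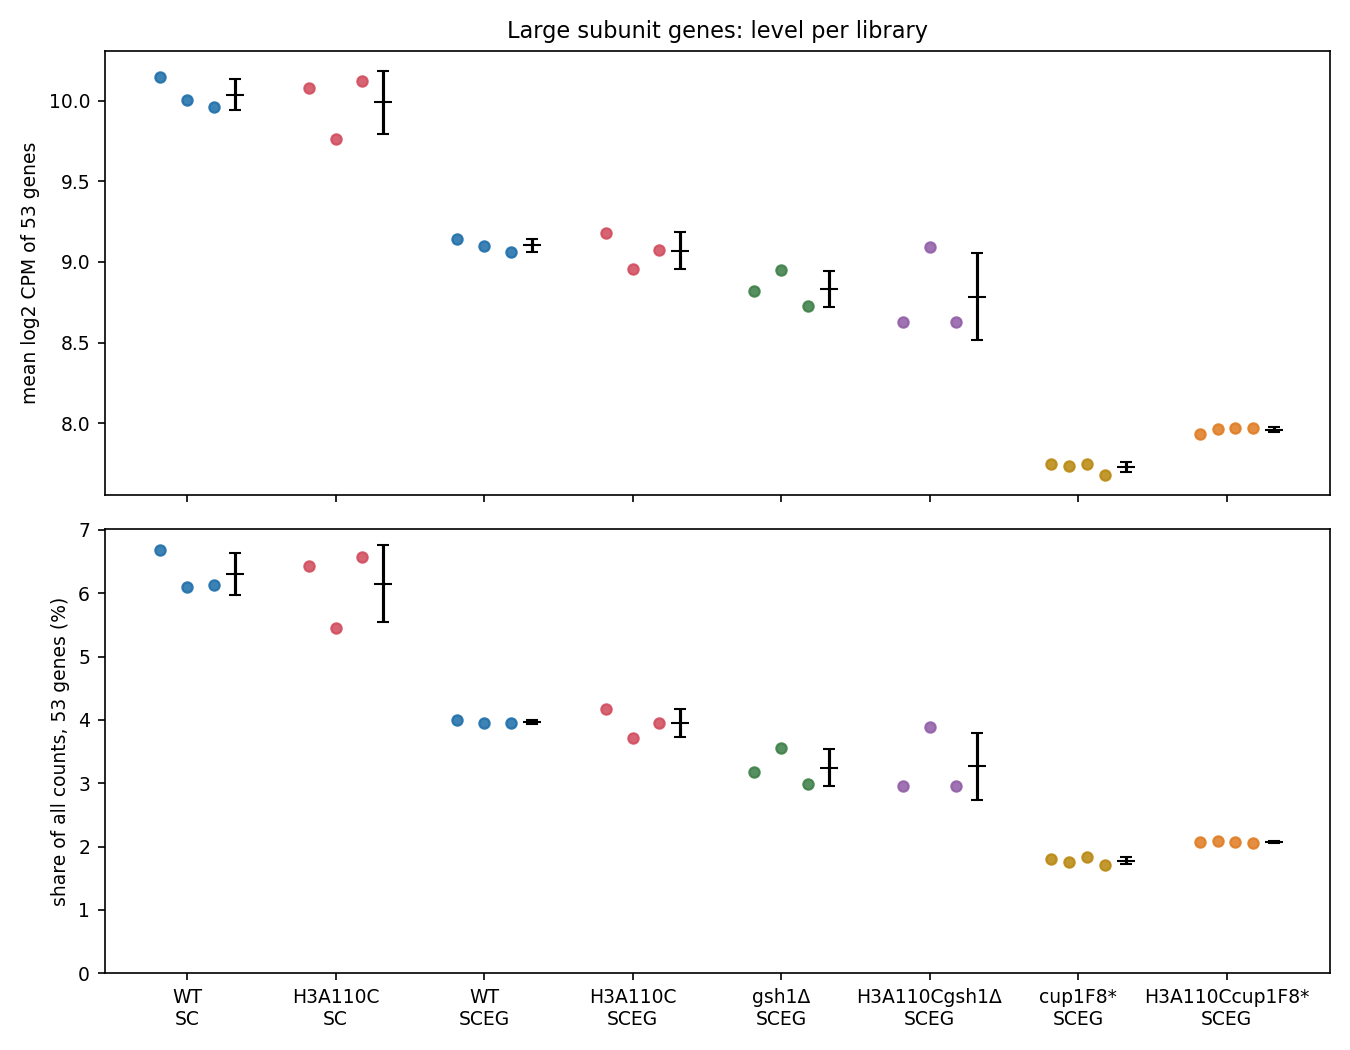
Mean log2 CPM of the 53 genes other than RPL22A, RPL28 and RPL39 (upper panel) and their share of all counts in percent (lower panel, from 0) in each library, with the group mean and SD in black. The SC libraries are highest, and the 4 cup1F8* libraries lie below the 4 of H3A110Ccup1F8*.

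Levels of single genes are compared per kilobase of coding sequence. Averaged over the 8 groups, the highest were RPL3, a protein close to the site of peptide bond formation (3390 CPM per kb), RPL5, which carries the 5S ribosomal RNA into the subunit (2860), and RPL32 (2800). All 3 are genes with 1 copy. The order was not the same in each group. RPL3 was the highest in all 8, but RPL10 was the next in WT in SC (5100), RPL15A lay above RPL32 in WT in SCEG (2930 and 2850), and RPL15A (2440) and RPL32 (2370) lay above RPL5 (2270) in gsh1Δ. Of the genes that kept reads in SCEG the lowest were the B copies RPL15B (88.5), RPL7B (119) and RPL22B (127), of which RPL15B was the lowest in WT in SC (82.1) and RPL7B in WT in SCEG (88.8, against 98.1 for RPL15B). RPL3 ran from 6014 to 7737 CPM in WT in SC, from 3845 to 4355 in WT in SCEG and from 1791 to 1936 in cup1F8*, with no overlap between these groups.

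In SCEG compared with SC, 49 of the other 53 genes were lower and 0 were higher in WT (edgeR's quasi-likelihood test, Benjamini-Hochberg adjusted p below 0.05), where 25.3% of all genes tested were called lower. Their median log2 fold change was −0.78, against 0.00 for all genes. In H3A110C 48 of 53 were lower and 0 higher with a median of −0.73, where 23.4% of all genes were called lower. RPL22A, RPL28 and RPL39 were also called lower, which made 52 and 51 of 56, but they passed the filter on low counts through the SC libraries alone and their calls support nothing. The other 8 genes with 1 copy were called lower in both strains. RPL25, at the mouth of the exit tunnel, was at 1536, 1490 and 1311 CPM in WT in SC and 942, 914 and 953 in SCEG. The fitted log2 fold change was −0.57 ± 0.09 (SE, adjusted p = 0.0018). Of the companion lists, 23 of 23 other large subunit genes (RPL33A and RPL43A left out) and 54 of 57 small subunit genes were called lower in WT.

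The largest falls among the 53 genes were those of RPL12A, RPL10, RPL12B and RPL8B, of which RPL10, RPL12B and RPL8B were singled out after their values were seen. RPL12A (YEL054C, chrV:52721-53218), which sits at the base of the stalk where translation factors bind, was at 1121, 979 and 999 CPM in WT in SC and at 167, 160 and 157 in SCEG. Its log2 fold change was −2.63 ± 0.09 (adjusted p = 6.61e-06) in WT and −2.61 ± 0.15 (adjusted p = 3.09e-05) in H3A110C. RPL12B was lower by less, with −1.96 ± 0.10 in WT (adjusted p = 2.01e-05). The groups lay far apart for both copies, whose proteins are identical. RPL10 (YLR075W, chrXII:282927-283592), the protein added last to the subunit in the cytoplasm, has 1 copy and unique sequence throughout. It was at 3461, 3771 and 2949 CPM in SC and 610, 563 and 572 in SCEG in WT (log2 fold change −2.49 ± 0.11, adjusted p = 1.4e-05). Among the 8 genes with 1 copy RPL10 fell most, and RPL3 was lower by less (−0.72 ± 0.12, adjusted p = 0.00225).

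The genes that did not pass in WT were RPL8A (log2 fold change −0.29 ± 0.11, adjusted p = 0.0699), RPL22B (−0.07 ± 0.26, adjusted p = 0.833), RPL9B (0.27 ± 0.11, adjusted p = 0.0735) and RPL15B (0.31 ± 0.19, adjusted p = 0.214), and in H3A110C RPL27B also missed (−0.43 ± 0.15, adjusted p = 0.0547). All are members of pairs. Without the SC library B of each strain (an alternative chosen after seeing the data), RPL15B was called higher in WT (0.52, adjusted p = 0.0076), and RPL15B (0.39, adjusted p = 0.0074) and RPL9B (0.28, adjusted p = 0.0058) in H3A110C.

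Genes with less unique sequence had the lower medians. The median log2 fold change in WT was −0.64 for 17 genes whose windows were all unique, −0.76 for the 24 with 80% to under 100% unique windows and −1.25 for the 12 below 80%. It was −0.71 for 31 genes with an intron and −0.85 for the 22 without. Genes are not independent replicates, copies of a pair share their windows, and no test was made of these medians, nor of the part that read assignment had in them.

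Scaling by total counts only, in place of TMM, raised the median of all genes to 0.20 in WT and 0.22 in H3A110C. The median of all 56 genes (−0.79 and −0.75 under TMM) was then −0.59 and −0.54, and relative to all genes it stayed lower. Under that scaling RPL9B (0.47) and RPL15B (0.52) were called higher in WT and RPL9B (0.64) in H3A110C. Of all calls in WT, 50.3% were higher under TMM and 67.4% under total counts.

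Between WT and H3A110C the large subunit genes did not differ detectably in either medium. In SC 0 of 56 passed, with log2 fold changes between −0.16 and 0.06 and a median of −0.03 (0 at an unadjusted p below 0.05, and 0 by DESeq2), where 0.0174% of all genes were called. In SCEG 0 of the 53 tested passed, with a median of −0.02 (1 at an unadjusted p below 0.05, and 0 by DESeq2), where 0.0353% were called. The largest difference was that of RPL7B, at 72.0, 69.0 and 54.8 CPM in WT and 46.5, 52.9 and 53.3 in H3A110C (−0.36 ± 0.13, adjusted p = 0.701). The change from SC to SCEG did not differ detectably between the strains either. None of the 56 genes passed (0 at an unadjusted p below 0.05, and 0 by DESeq2), and 0% of all genes did so by edgeR.

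In gsh1Δ compared with WT in SCEG, 20 of the 53 genes tested were lower and 0 higher, where 12.8% of all genes were called lower. The median log2 fold change was −0.26, against 0.02 for all genes, and 49 of the 53 point estimates were below 0. Of the 8 genes with 1 copy that were tested, 3 were called lower, RPL3, RPL5 and RPL30, the last of which binds its own transcript and blocks its splicing. RPL5 was at 2776, 2604 and 2569 CPM in WT and 1906, 2266 and 1918 in gsh1Δ (−0.37 ± 0.12, adjusted p = 0.0397). Among small subunit genes 28 of 57 were lower and 1 higher, and among the other large subunit genes 3 of 23 were lower.

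RPL9A fell most. It was at 670, 601 and 622 CPM in WT and 348, 411 and 331 in gsh1Δ (−0.78 ± 0.11, adjusted p = 0.00046), while RPL9B was at 450, 510 and 461 CPM in WT and 513, 470 and 451 in gsh1Δ (0.03 ± 0.09, adjusted p = 0.862). The copies encode proteins that differ at 4 of 191 residues. RPL1A, a protein of the mobile L1 stalk where spent tRNA leaves, was at 325, 302 and 305 CPM in WT and 198, 233 and 173 in gsh1Δ (−0.61 ± 0.11, adjusted p = 0.00306), though most of its reads cannot be placed uniquely. RPL20B (−0.42 ± 0.10, adjusted p = 0.011) and RPL7A (−0.40 ± 0.10, adjusted p = 0.0158) followed. In all 4 genes the groups did not overlap.

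The count of 20 of 53 (37.7%) depended on single libraries. It was 6, 7 and 6 (11.3%, 13.2% and 11.3%) without WT replicate 1, 2 and 3, where 10.9%, 10.7% and 10.3% of all genes were called lower. It was 3, 34 and 3 (5.66%, 64.2% and 5.66%) without gsh1Δ replicate 1, 2 and 3, where 7.66%, 12.1% and 9.32% of all genes were. The share of these genes was thus near or below that of all genes in 5 of the 6 settings, and gsh1Δ replicate 2 had the highest mean level of its group. RPL9A, RPL1A and RPL20B were called in each of these 6 settings, and RPL7A was not called without gsh1Δ replicate 1 (adjusted p = 0.0828) or 3 (adjusted p = 0.0571). The median ran from −0.34 to −0.21.

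In H3A110Cgsh1Δ compared with gsh1Δ, 0 of the 53 genes tested passed (7 at an unadjusted p below 0.05, and 0 by DESeq2), where 0.844% of all genes were called, and the median was 0.02. The single values spread more widely than between WT and H3A110C. They ran from −0.91 ± 0.32 for RPL22B (adjusted p = 0.224) and −0.89 ± 0.34 for RPL7B (adjusted p = 0.251) to 0.46 ± 0.16 for RPL9A (adjusted p = 0.221). RPL7B was at 79.0, 87.0 and 67.9 CPM in gsh1Δ and 23.6, 69.2 and 32.2 in H3A110Cgsh1Δ, where the middle value belongs to replicate 2. RPL22B was at 71.6, 56.1 and 62.5 CPM and then 21.4, 54.5 and 24.2. Replicate 2 of H3A110Cgsh1Δ lay nearer to gsh1Δ than the other 2 libraries did for both genes. Without it 12 genes (22.6%) were called lower, where 9.33% of all genes were, against 0.58% with it. Among them were RPL7B (−1.53, adjusted p = 8.6e-05), RPL22B (−1.50, adjusted p = 8.46e-05), RPL9B (−0.67, adjusted p = 0.00218), RPL14B (−0.69, adjusted p = 0.00144), RPL18B (−0.57, adjusted p = 0.00373) and RPL8A (−0.65, adjusted p = 0.00357). Leaving out the library nearest to gsh1Δ widens the difference for RPL7B and RPL22B, so their calls in this setting support nothing. Without any other single library of either group, 0 genes were called. The difference between the H3A110C effect with and without GSH1 was called for 0 of 53 genes (5 at an unadjusted p below 0.05, and 0 by DESeq2), where 0.365% of all genes passed. Without replicate 2 of H3A110Cgsh1Δ it was called for 6 (11.3%), where 2.47% of all genes were called in the same direction. These were RPL7B, RPL8A, RPL9B, RPL14B, RPL18B and RPL22B, each with a lower effect in gsh1Δ. Without any other single library it was called for 0.

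**Figure D3:**
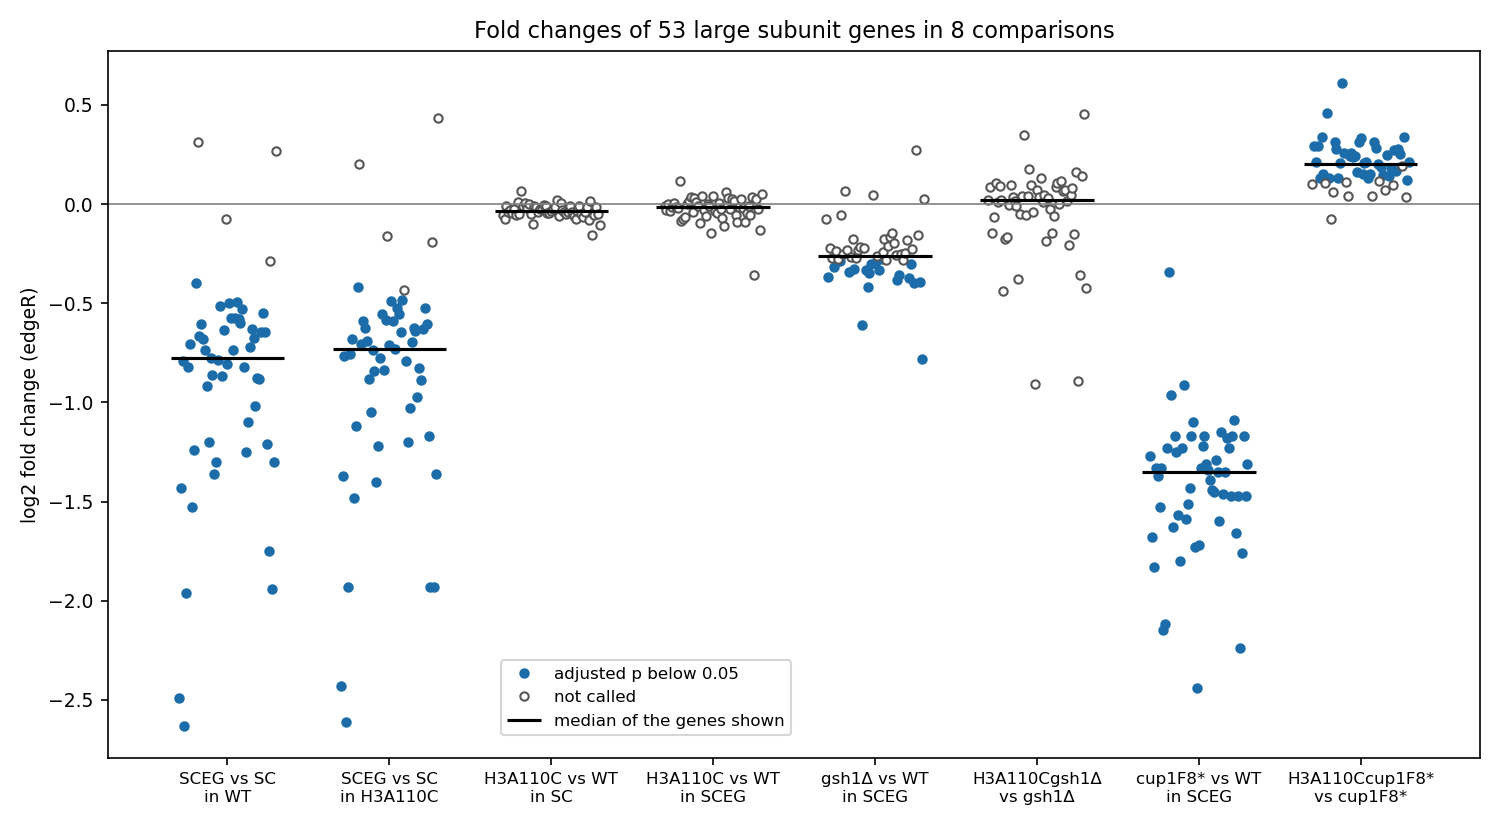
Log2 fold changes of the 53 genes other than RPL22A, RPL28 and RPL39 in 8 comparisons (1 point per gene, filled where the adjusted p was below 0.05, bar at the median). All 53 points lie below 0 in cup1F8* and all but RPL15B above 0 when H3A110C is added to it, and RPL9B and RPL15B lie above 0 from SC to SCEG.

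The largest difference in SCEG was that between cup1F8* and WT. Of the 54 genes tested 53 were lower and 1 was higher, where 34.8% of all genes were called lower and 34.3% higher. The median log2 fold change was −1.35, against 0.00 for all genes, and under total counts it was −1.19 while that of all genes was 0.16. The gene called higher was RPL28, with 3 to 10 reads in WT and 37 to 63 in cup1F8*, which passed the filter through the cup1F8* libraries alone, so that its call supports nothing. Of the small subunit genes 57 of 57 were lower, and of the other large subunit genes 21 of 23 (RPL33A and RPL43A left out). By their numbers the cup1F8* libraries lie apart from those of WT, so strain and a possible batch cannot be told apart in these values.

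Genes with 1 copy fell by similar amounts. RPL3 fell by 1.15 ± 0.08 on the log2 scale (adjusted p = 5.26e-07), RPL10 by 1.27 ± 0.07 (adjusted p = 2.21e-07) and RPL25 by 1.31 ± 0.06 (adjusted p = 4.11e-08). RPL25 was at 942, 914 and 953 CPM in WT and 394, 395, 384 and 385 in cup1F8*. Except for RPL28, the genes with 1 copy lay within a narrow range, down to −1.46 for RPL30.

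The 4 largest falls were all in pairs. RPL22B, the copy of RPL22 that kept reads in SCEG, was at 60.1, 77.0 and 48.4 CPM in WT and 10.8, 13.3, 11.9 and 10.997 in cup1F8* (−2.44 ± 0.16, adjusted p = 4.4e-07). RPL7B was at 72.0, 69.0 and 54.8 CPM in WT and 16.8, 13.4, 14.6 and 12.4 in cup1F8* (−2.24 ± 0.13, adjusted p = 2.19e-07). RPL14A (−2.15 ± 0.08, adjusted p = 2.28e-08) and RPL14B (−2.12 ± 0.09, adjusted p = 3.58e-08) fell alike, with the split of reads between them uncertain as given above. The groups did not overlap in any of them. The smallest fall was in RPL15B, at 63.7, 65.6 and 51.8 CPM in WT and 44.4, 58.5, 50.2 and 43.6 in cup1F8*, where the groups overlapped (−0.34 ± 0.12, adjusted p = 0.0297). By sequence, the median was −1.29 for 17 genes with unique windows, −1.33 for the 24 between and −1.60 for the 12 below 80%.

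When H3A110C was combined with cup1F8*, 41 of the 54 genes tested were higher than in cup1F8* and 0 were lower, where 24.6% of all genes were called higher. The changes were small. The median log2 fold change was 0.20, against −0.01 for all genes, and 53 of the 54 point estimates were above 0. Both strains belong to the same set of libraries, in which those of cup1F8* are numbered before those of H3A110Ccup1F8*. A possible batch that follows this order cannot be told apart from H3A110C in these values. Among companion genes 39 of 57 in the small subunit were higher and 3 lower, and 11 of 24 other large subunit genes were higher and 0 lower. Of the 9 genes with 1 copy that were tested 6 were called higher. RPL5 was at 1236, 1218, 1245 and 1146 CPM in cup1F8* and 1459, 1493, 1515 and 1510 in H3A110Ccup1F8* (0.27 ± 0.05, adjusted p = 0.000519), with no overlap, and RPL32 rose by a similar amount (0.24 ± 0.04, adjusted p = 0.000437).

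RPL18B rose most, from 33.4, 38.5, 36.8 and 33.7 CPM to 53.3, 54.1, 56.1 and 59.1 (0.61 ± 0.07, adjusted p = 1.71e-05). RPL14B rose from 32.7, 31.1, 27.4 and 29.4 CPM to 39.6, 43.6, 44.02 and 42.5 (0.46 ± 0.07, adjusted p = 0.000248). RPL8A rose by 0.34 ± 0.05 (adjusted p = 0.000294) and RPL13A by 0.34 ± 0.05 (adjusted p = 0.000128). The groups did not overlap for these 4 genes, and the levels after the rise remained below those of WT in SCEG, where RPL18B was at 128, 119 and 113 CPM. The estimate below 0 was that of RPL15B (−0.08 ± 0.10, adjusted p = 0.549). With all libraries in a single fit, which shares 1 estimate of spread among the groups, 24 of the genes (44.4%) were called higher, where 20.8% of all genes were.

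The effect of H3A110C was higher in cup1F8* than in WT for 14 of 54 genes and lower for 0, where 8.36% of all genes passed as higher. They were RPL5, RPL6B, RPL8A, RPL12A, RPL13A, RPL16B, RPL18B, RPL19A, RPL20A, RPL20B, RPL23A, RPL24A, RPL27A and RPL32. The median difference over the 54 genes was 0.22 on the log2 scale, against 0.01 for all genes. Among the genes called it was largest in RPL18B (0.585 ± 0.10, adjusted p = 0.00169), RPL6B (0.34 ± 0.10, adjusted p = 0.0247), RPL12A (0.34 ± 0.08, adjusted p = 0.0092) and RPL13A (0.34 ± 0.10, adjusted p = 0.0285). In WT the same 4 genes gave no call for H3A110C. The order of the cup1F8* and H3A110Ccup1F8* libraries, given above, limits this difference as well. The count of 14 (25.9%) varied with the fit. It was 26 (48.1%) by DESeq2, where 11.9% of all genes passed as higher, and 1 (1.85%), RPL18B, with all libraries in a single fit, where 6.81% did. It was 5 (9.26%) without WT replicate 1 or 2, where 6.65% and 7.22% of all genes passed. Without H3A110C replicate 1, 2 and 3 it was 24, 3 and 8 (44.4%, 5.56% and 14.8%), where 7.96%, 6.40% and 7.18% did, and without cup1F8* replicate 1 and 4 it was 7 and 6 (13% and 11.1%), where 6.12% and 6.5% did. In the single fit and without H3A110C replicate 2 the share was below that of all genes. RPL18B was called in each setting run, RPL12A in all but the single fit (adjusted p = 0.0924), and RPL6B and RPL13A were lost in 3 and 5 settings.

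The copies of a pair did not always change together. For each library the log2 ratio of A to B was taken from counts per kilobase, with 0.5 added to each count, in the 22 pairs other than RPL22. In WT in SC the copies were more than 2-fold apart in 10 of the 22 pairs and the A copy was the higher in 13. RPL15A exceeded RPL15B by 5.63 ± 0.33 (SD, n = 3) on the log2 scale, the widest gap. As a background, the same ratio was taken in 24 A and B pairs of small subunit genes, without a test between the lists. Between WT and H3A110C the ratio overlapped in 22 of 22 pairs in SC and in 20 of 22 in SCEG. The exceptions, RPL1 and RPL23 (9.09%), moved by −0.14 and 0.08. Of the small subunit pairs 0% in SC and 12.5% in SCEG did not overlap, so the exceptions are no result about these pairs. With 3 libraries against 3 a two-sided exact permutation test cannot go below p = 0.1, with 4 against 3 it cannot go below 0.0571 and with 4 against 4 not below 0.0286. The p-values of the ratios are given without adjustment over the pairs compared.

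Between the media the ratio did not overlap in 16 of 22 pairs (72.7%) in WT and 15 of 22 (68.2%) in H3A110C, against 62.5% and 58.3% of the small subunit pairs. In 2 pairs the order of the copies or the size of the gap changed most. RPL8B was the higher copy in SC, with a log2 ratio of A to B of −1.39 ± 0.15 (n = 3) in WT, and RPL8A was the higher in SCEG, with 0.26 ± 0.12 (n = 3), a change of 1.66 (exact p = 0.1). RPL8B went from 2747, 2636 and 2424 CPM to 683, 628 and 647, and RPL8A from 1081, 892 and 1006 to 847, 803 and 705. In RPL9 the ratio went the other way, from 1.98 ± 0.26 to 0.41 ± 0.17 (n = 3 each, change −1.56, exact p = 0.1), as RPL9A fell while RPL9B did not pass. RPL15 (−0.72) and RPL12 (−0.67) followed, both toward the B copy. H3A110C gave like values, with −1.83 for RPL9, 1.76 for RPL8, 0.75 for RPL7 and −0.66 for RPL12. Unique windows made up 93.07% for RPL8, 85.96% for RPL9, 89.53% for RPL12 and 88.16% for RPL15, against 37.7% for RPL7. These shares bear on the split between copies. They do not show whether reads were assigned alike in both media, which was not tested.

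**Figure D4:**
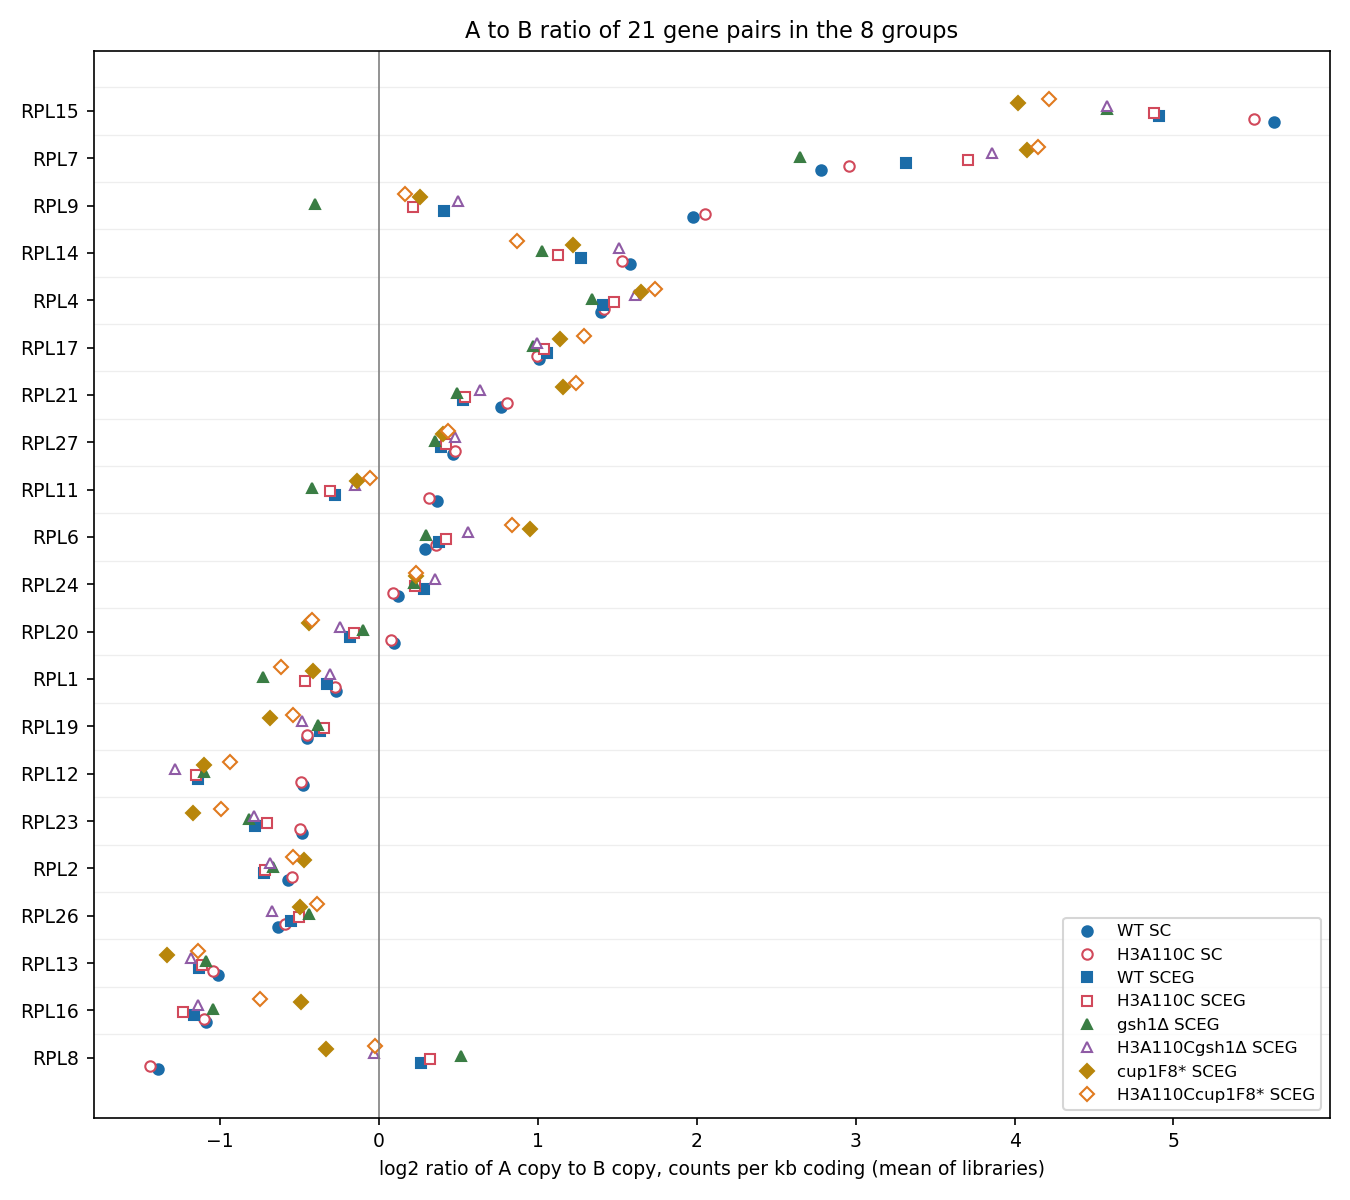
Log2 ratio of the A copy to the B copy (counts per kilobase of coding sequence) in 21 of the 22 pairs, 1 symbol per group at the mean of its libraries, with pairs ordered by the ratio in WT in SC. RPL8 lies at −1.39 in WT in SC and 0.26 in WT in SCEG, and RPL9 at 1.98 and 0.41.

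In gsh1Δ compared with WT the ratio did not overlap in 7 of 22 pairs (31.8%), against 29.2% of the small subunit pairs. RPL9 moved from 0.41 ± 0.17 to −0.40 ± 0.19 (n = 3 each, exact p = 0.1), so that RPL9B became the higher copy. RPL7 (−0.68), RPL1 (−0.40) and RPL15 (−0.32) also moved toward the B copy. In H3A110Cgsh1Δ compared with gsh1Δ the ratio did not overlap in 12 of 22 pairs (54.5%), against 50% of the small subunit pairs. RPL7 moved by 1.21, RPL9 by 0.90, RPL8 by −0.55 and RPL14 by 0.48 (exact p = 0.1 each). For RPL9 the 3 libraries of H3A110Cgsh1Δ were at 0.731, 0.386 and 0.380, where WT in SCEG was at 0.574, 0.236 and 0.431. For RPL7 they were at 4.47, 3.19 and 3.93, with replicate 2 nearest to gsh1Δ (2.56, 2.66 and 2.72).

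In cup1F8* compared with WT the ratio did not overlap in 13 of 22 pairs (59.1%), against 83.3% of the small subunit pairs. The A copy lost ground in RPL15 (−0.88) and gained in RPL7 (0.76), RPL16 (0.66) and RPL21 (0.63, exact p = 0.0571 each). RPL16A and RPL16B, which have unique sequence throughout and differ at 20 residues, went from −1.16 ± 0.05 (n = 3) to −0.49 ± 0.08 (n = 4), as RPL16B fell more (−1.63 ± 0.06) than RPL16A (−0.96 ± 0.06). In H3A110Ccup1F8* compared with cup1F8* the ratio did not overlap in 11 of 22 pairs (50%), against 45.8% of the small subunit pairs. RPL14 moved from 1.22 ± 0.14 to 0.87 ± 0.13, RPL8 from −0.33 ± 0.12 to −0.02 ± 0.03 and RPL16 from −0.49 ± 0.08 to −0.75 ± 0.02 (n = 4 each, exact p = 0.0286 each, the smallest the test allows).

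**Figure D5:**
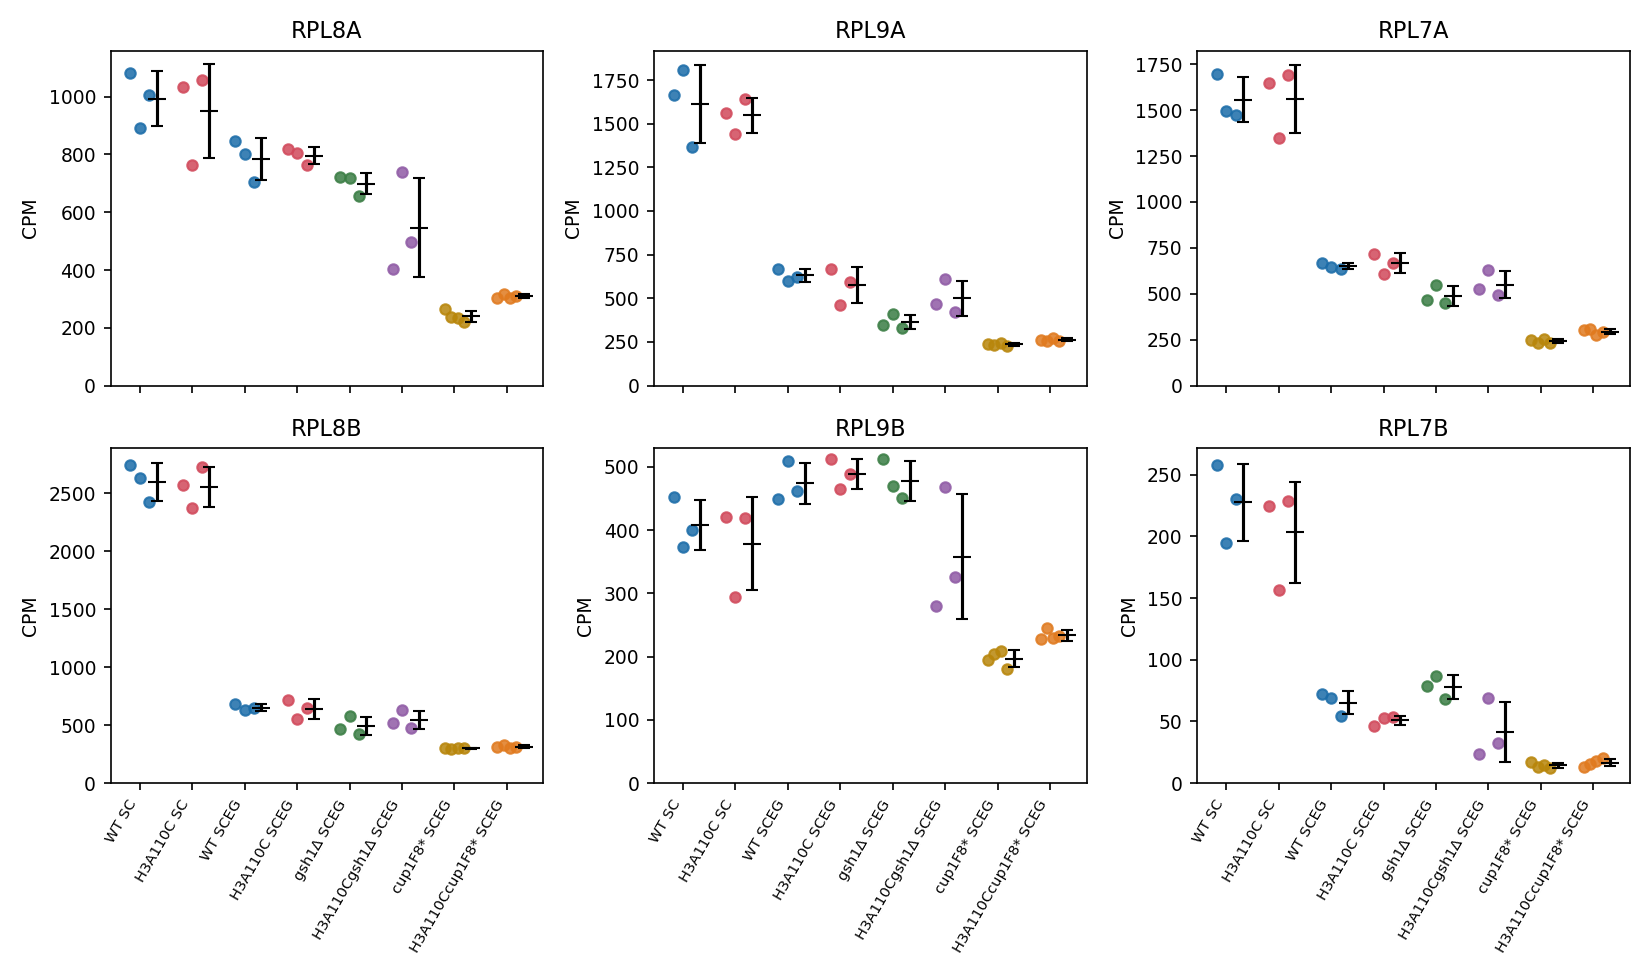
CPM of both copies of RPL8, RPL9 and RPL7 in each library of the 8 groups (points), with the group mean and SD in black and axes from 0. In WT, RPL8B drops from 2424 or more in SC to 683 or fewer in SCEG and RPL9A from 1368 or more to 670 or fewer, while RPL9B overlaps between the media.

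Transcripts of 12 regulators of these genes were called in shares near those of all genes in some comparisons and further from them in others. No test was made of these counts in so short a list, so they are no result about regulators. From SC to SCEG in WT, CRF1, the co-repressor, rose (2.32 ± 0.29, adjusted p = 0.000772), as did ABF1, a general regulatory factor (0.76 ± 0.15, adjusted p = 0.00539), and the kinase gene TOR1 (0.39 ± 0.13, adjusted p = 0.0369), which made 3 of 12 (25%, against 25.6% of all genes), while HMO1, a high-mobility-group protein found at many of these promoters, fell (−0.62 ± 0.13, adjusted p = 0.00789). In cup1F8* compared with WT, 3 of 12 were higher (25%, against 34.3% of all genes: ABF1, CRF1 and TOR1) and 5 lower (41.7%, against 34.8%), with IFH1 at −0.88 ± 0.16 (adjusted p = 0.000688), FHL1 at −0.46 ± 0.08 (adjusted p = 0.000432) and the kinase gene SCH9 at −0.42 ± 0.09 (adjusted p = 0.00256), and smaller falls in MRS6 and TOR2. In H3A110Ccup1F8* compared with cup1F8*, 5 of 12 were lower (41.7%, against 25.9% of all genes: ABF1, RAP1, HMO1, TOR1 and FHL1) and CRF1 was higher (0.40 ± 0.08, adjusted p = 0.00146). In gsh1Δ, 5 of 12 were higher (41.7%, against 12.5% of all genes: IFH1, TOR2, SFP1, FHL1 and HMO1) and ABF1 was lower (−0.46 ± 0.10, adjusted p = 0.00715). FHL1 and IFH1 were called lower in cup1F8* and higher in gsh1Δ, where FHL1 passed narrowly (adjusted p = 0.0463). From SC to SCEG in WT neither was called (FHL1 0.157 ± 0.205, adjusted p = 0.558, and IFH1 −0.329 ± 0.223, adjusted p = 0.259). In H3A110C from SC to SCEG, CRF1, ABF1 and HMO1 were called in the same directions as in WT. TOR1 was not called there (0.25 ± 0.12, adjusted p = 0.139). Whether the transcripts of regulators bear on the large subunit genes was not tested.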

How the data were processed

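Poly(A) RNA of 26 libraries was analysed as described above. The authors aligned the reads with HISAT2 (R64-1-1 build), counted them per open reading frame with featureCounts and deposited the counts without normalization. A second deposited table, of DESeq2-normalized values, was not used. Groups came from the sample labels. SC columns carry letters and were assigned to groups only. Each pair of groups was fitted in edgeR 4.0.16 (limma 3.58.1, R 4.3.3) with TMM, its default filter and the quasi-likelihood test over all genes, with calls made at an adjusted p (Benjamini-Hochberg) below 0.05. Differences of effects were interaction terms. SE is the absolute log2 fold change divided by the square root of F. CPM levels used TMM over all 26 libraries and means of log2 CPM a prior count of 2, so levels and fitted fold changes can differ slightly. Ratios within pairs were tested by two-sided exact permutation (scipy). Alternatives were the DESeq2 1.42.0 Wald test and size factors, total counts, no filter, a single fit, a replicate block, other prior counts and leave-one-out. Members, lists and tests were chosen with earlier results of these data known. The SC column letter used as a block, removal of both SC libraries B, removal of RPL22A, RPL28 and RPL39 (and of RPL33A and RPL43A from the other large subunit genes), small subunit pairs as a background, and the 600-base window with the second Rap1 core were chosen after seeing the data. The first window, 250 bases before to 50 after each gene's start, held the core ACCCNNACA for 8.93% of the genes and 2.83% of the genome, and an Abf1 core (TC and ACG with 7 bases of any kind between) for 32.1% and 30%. Genes named were, per comparison, up to 4 called rises and falls without overlap, up to 4 pairs with the largest ratio changes, examples of genes with 1 copy, and the highest and lowest per kilobase. The ratio of 1 pair is not reported here on its own. The fits were tested on simulated data. A floor of 3 counts corresponds to 0.244 to 1.03 CPM per library, which covers counting error only.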

Additional observations from a re-analysis of the deposited data

Results flagged for a closer look

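In cup1F8* the 56 genes averaged a log2 CPM of 7.25 in replicate 4 and 7.31 to 7.32 in the other 3 libraries, so that the gap took up 0.953 of the group's range. Chance alone flags about 1 in 20 groups of this size, and 2 groups of 4 were looked at for the mean and for each gene named in the cup1F8* comparisons. The gap is small beside the difference between groups, as all 4 libraries lay below the lowest H3A110Ccup1F8* library (7.49).

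The effect of H3A110C on 14 genes differed between cup1F8* and WT by the interaction term in edgeR, and was higher in cup1F8* in each. The differences, on the log2 scale, were 0.319 for RPL5, 0.339 for RPL6B, 0.318 for RPL8A, 0.337 for RPL12A, 0.337 for RPL13A, 0.317 for RPL16B and 0.585 for RPL18B. They were 0.247 for RPL19A, 0.292 for RPL20A, 0.301 for RPL20B, 0.294 for RPL23A, 0.259 for RPL24A, 0.254 for RPL27A and 0.265 for RPL32. Both A and B copies were among them for RPL20 alone.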

How the results depend on the processing

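The direction of the median of the large subunit genes from SC to SCEG, in cup1F8*, H3A110Ccup1F8* and gsh1Δ held in every alternative run. Of 345 fold changes of named genes under an alternative, 334 kept direction and call, 11 kept direction without a call and 0 reversed. These genes were named because they were called in the main fit, with the largest changes. RPL22A, RPL28 and RPL39 are among them. The 345 values therefore say little about how firm the calls are. Scaling by total counts gave medians of −0.59 and −0.54 from SC to SCEG in WT and H3A110C, −1.19 in cup1F8* and 0.23 in H3A110Ccup1F8*, and called 2 and 1 genes higher from SC to SCEG. With all libraries in a single fit, 1 gene was called higher from SC to SCEG in H3A110C, the medians were −1.31 in cup1F8* and 0.24 in H3A110Ccup1F8*, 24 genes were higher in the latter, 2 were higher (RPL1A and RPL9A) and 5 lower (RPL7B, RPL9B, RPL14B, RPL18B and RPL22B) in H3A110Cgsh1Δ, and 1 differed between the H3A110C effects in cup1F8* and WT. DESeq2's Wald test gave 26 for that difference and 1 gene higher from SC to SCEG in H3A110C, RPL9B. Without both SC libraries B, 1 and 2 genes were higher from SC to SCEG in WT and H3A110C. Without RPL22A, RPL28 and RPL39, 0 genes were higher in cup1F8*. The cause was not tested.

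With the replicate block 11 genes were lower in gsh1Δ, 35 were higher in H3A110Ccup1F8* and 10 differed between the H3A110C effects in cup1F8* and WT. Deviations of same-numbered SCEG libraries correlated at 0.056 to 0.459 between H3A110C and WT (mean 0.275, against −0.138 for unlike numbers). Between cup1F8* and WT they correlated at 0.046 to 0.111. The range was −0.011 to 0.013 for gsh1Δ, −0.164 to 0.155 for H3A110Cgsh1Δ and −0.119 to −0.023 for H3A110Ccup1F8*. Between H3A110C and WT in SCEG the block raised the calls over all genes from 1 higher and 1 lower to 38 and 60. Of the large subunit genes 0 passed. What the numbers stand for is not given in the sources used here. In SC the column letters correlated at 0.623 or more, and 0 genes passed with the letter as a block.

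Leaving out each library in turn gave 0 to 1 genes higher from SC to SCEG in WT and 0 to 2 in H3A110C, 3 to 34 lower in gsh1Δ with a median of −0.34 to −0.21, 0 to 12 lower in H3A110Cgsh1Δ, 0 to 6 lower for the difference between the H3A110C effects in gsh1Δ and WT, and 3 to 24 higher for that between cup1F8* and WT. RPL28 had only 1 to 63 reads in SCEG, so its values there are uncertain.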
